A study of Arabidopsis thaliana with 12 samples.

Results

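The 6 plastid sugar-phosphate translocators of Arabidopsis thaliana are described here in shoots of seedlings treated with inhibitors of the TOR kinase. They are the glucose 6-phosphate translocators GPT2 (AT1G61800) and GPT1 (AT5G54800), the triose phosphate translocator TPT (AT5G46110), the phosphoenolpyruvate translocators PPT1 (AT5G33320) and PPT2 (AT3G01550), and the xylulose 5-phosphate translocator XPT (AT5G17630). These 6 of the 33602 genes in the count tables were taken by their identifiers as a family. The family was picked for the steep rise of GPT2 shared by the 3 inhibitors, so its members were chosen by GPT2 levels against mock, which are given as a description with no test. The other 5 genes came in as family members.

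Col-0 seedlings grown in continuous light were moved 4 days after germination, for 8 h, to plates with 2 µM AZD8055, 20 µM KU63794, 10 µM TORIN1 or an equal amount of the solvent DMSO (mock). One protocol field of the labels spells the second compound KU63749. All 3 compounds are described by the study as active-site inhibitors of TOR, a protein kinase that ties growth to the supply of nutrients and energy. Polyadenylated RNA of about 30 mg of whole shoot was sequenced in 3 libraries per group, 12 in all, and the labels do not say whether libraries of a group came from separate plants or plates. P-values therefore measure only the spread between these libraries, which may be technical.

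Plastid phosphate translocators sit in the inner envelope membrane and exchange a phosphorylated sugar or 3-carbon acid for inorganic phosphate. TPT exports the triose phosphate made by photosynthesis to the cytosol, where it feeds sucrose synthesis. GPT1 and GPT2 carry glucose 6-phosphate, which in plastids serves starch synthesis and the pentose phosphate pathway. GPT1 is the housekeeping form, needed for pollen and embryo sac development, and GPT2 is known in Arabidopsis as a sugar-inducible form that takes part in the acclimation of photosynthesis to light. PPT1 and PPT2 import phosphoenolpyruvate, the precursor of aromatic amino acids through the shikimate pathway, and XPT carries pentose phosphates.

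GPT2 and GPT1 are the most alike of the family, which matters because the results below differ so widely between them. Over 379 aligned residues of the proteins in the RefSeq annotation, 288 (76.0%) were the same, and over 1128 aligned coding bases 834 (73.9%). The most alike stretch of 60 bases, coding positions 322 to 381 of both genes, is shown to compare the pair, with capitals at the 8 bases that differ.
GPT2: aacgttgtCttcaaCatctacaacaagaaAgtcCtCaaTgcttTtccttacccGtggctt
GPT1: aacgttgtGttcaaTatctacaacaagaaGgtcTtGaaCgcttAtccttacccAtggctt
The median window of this length held 13 differences, over 830 windows, and the longest run shared by the mRNAs of the pair was 20 bases. No stretch of 50 bases of the GPT2 or GPT1 mRNA occurred elsewhere in the nuclear genome. A 50-base match without mismatches would thus belong to 1 of these genes only, although the sources used here give neither the read length nor how shared reads were handled. PPT1 and PPT2 shared 59.0% of residues, GPT1 and XPT 49.3%, GPT2 and XPT 48.0%, and the other pairs 35.0% to 42.7%.

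The GPT2 gene lies at chr1:22824414-22826902 on the plus strand in the TAIR10.1 assembly, with 4 exons and a coding length of 1233 bases. The submitters' notes name TAIR10, and the count tables hold no coordinates. The 250 bases before its annotated start, chr1:22824164-22824413, are shown because the largest change of the family was in this gene, with capitals at each TATAAA, the core of the TATA box.
GPT2 upstream: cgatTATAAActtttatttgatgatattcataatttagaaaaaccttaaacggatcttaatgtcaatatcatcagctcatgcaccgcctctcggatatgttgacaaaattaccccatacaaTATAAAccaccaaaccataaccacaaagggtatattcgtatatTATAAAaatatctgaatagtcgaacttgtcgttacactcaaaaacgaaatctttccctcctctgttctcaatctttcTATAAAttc
The window searched on both strands ran from these 250 bases to 50 bases past the start. GPT2 held TATAAA 4 times, 246, 129, 86 and 9 bases before the start. TPT held it 3 times, PPT2 and XPT 2 times each, and GPT1 and PPT1 had no match. This motif was looked for only after the data had been seen, and 52.1% of 27443 promoters held it at least 1 time. The G-box CACGTG (7.68% of promoters), the W-box TTGACC or TTGACT (32.4%), the sugar response element TATCCA (16.1%), the telo-box AACCCTA (8.83%) and the site II element TGGGCC (15.5%) had no match in the windows of GPT2, GPT1, PPT1, PPT2 or XPT. TPT held 1 W-box, TTGACT, 163 bases before its start on the minus strand.

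Library totals ran from 9557783 to 12272364 counts with AZD8055, from 11623964 to 12220409 with KU63794, from 9312409 to 14696645 with TORIN1 and from 7706957 to 14220537 in mock. Levels below are in CPM, the counts-per-library unit computed here on TMM-adjusted totals, and 3 counts, the limit that a count of 0 allows, corresponded to 0.205 to 0.391 CPM. Such limits and the intervals of shares cover counting error only. Of the genes, 17933 passed the low-count filter, among them all 6 translocators. Markers of photosynthetic shoot tissue, 6 genes, were present in every library and summed to 41444 to 61329 CPM with AZD8055, 42482 to 45708 with KU63794, 44008 to 65816 with TORIN1 and 45548 to 47153 in mock. The 5 root markers summed to 4.73 to 13.3 CPM with AZD8055, 8.80 to 15.3 with KU63794, 12.9 to 24.1 with TORIN1 and 14.2 to 33.5 in mock. EXPA7 and CYP71A16 were at 0 with AZD8055, CYP71A16 with KU63794, EXPA7 and RSL4 with TORIN1, and no root marker in mock. The 4 seed storage markers ranged from 0 to 143 CPM with AZD8055, 0.782 to 184 with KU63794, 0.687 to 155 with TORIN1 and 34.2 to 59.1 in mock. With AZD8055, where TPT and PPT2 were called, THAS1, the root marker that passed the filter, had a log2 fold change of -1.51 (SE 0.44, edgeR adjusted p = 0.0274), and 2 of the 6 shoot markers were called higher, LHCB2.1 by 0.72 (SE 0.19, edgeR adjusted p = 0.0127) and LHCA1 by 0.49 (SE 0.17, edgeR adjusted p = 0.0453). With TORIN1 the shoot marker LHCB1.3 had -0.81 (SE 0.13, edgeR adjusted p = 0.000779). The part of tissue makeup in the results below was not tested. In whole shoots a change in the cells that hold an mRNA and a change of its amount per cell cannot be told apart.

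GPT2 was near the limit of detection in mock shoots and clearly present with each inhibitor. With AZD8055 the 3 libraries had 653, 460 and 487 counts, or 56.6, 45.5 and 41.9 CPM. KU63794 gave 380, 173 and 405 counts, or 29.7, 13.6 and 33.6 CPM, and TORIN1 gave 294, 290 and 430 counts, or 28.6, 32.9 and 32.8 CPM. Mock libraries had 12, 23 and 0 counts, or 0.821, 2.19 and 0 CPM. All 9 inhibitor libraries lay above all 3 mock libraries, and the lowest of them, KU63794 replicate 2, stood at 13.6 CPM, against 2.19 CPM in the highest mock library.

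The fitted log2 fold changes of GPT2 over mock were 5.48 (SE 0.55) with AZD8055, 4.58 (SE 0.55) with KU63794 and 4.87 (SE 0.55) with TORIN1, or 44.7-, 23.9- and 29.3-fold. These folds rest on the 35 counts of the mock group and move with single mock libraries. Without mock replicate 2, which held 23 of them, they were 89.5-, 47.7- and 58.6-fold, and without mock replicate 3, which had 0 counts, 33.5-, 17.9- and 22.0-fold. By limma voom the log2 fold changes were 6.29, 5.29 and 5.69. Ordered by its smallest change over the 3 inhibitors, GPT2 was second of the 1102 genes that were called higher with all of them and averaged at least 1 CPM, behind the sugar transporter gene SWEET10 (AT5G50790). Among the 1087 of these whose mock mean exceeded the level of 3 counts in the shallowest library, it was first. This order restates the values that chose the family and carries no test. In the authors' deposited tables, whose log2 fold changes are given as mock over inhibitor, GPT2 had -2.01 for AZD8055, -1.49 for KU63794 and -1.64 for TORIN1, smaller changes than those fitted here. By size of rise it was number 16 of 5308, 30 of 4558 and 26 of 3696 genes listed there.

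**Figure D1:**
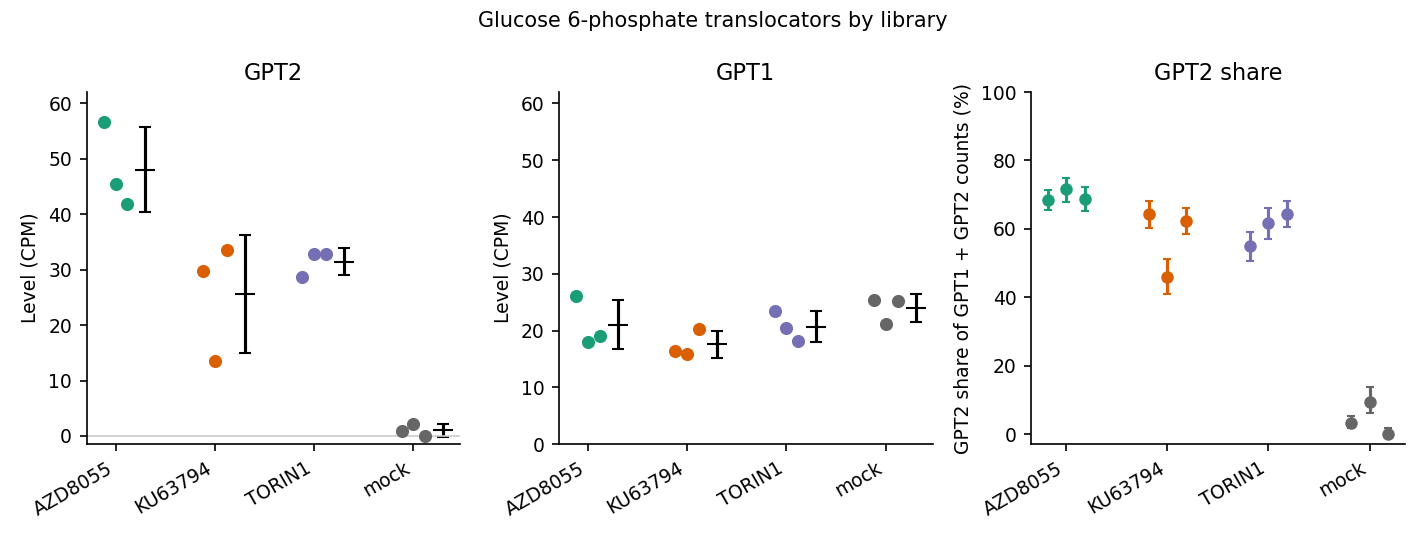
GPT2 (left) and GPT1 (middle) in CPM in each library, with the mean and SD of 3 libraries beside the points, and the GPT2 share of GPT1 plus GPT2 counts in percent with exact binomial 95% intervals (right), for AZD8055, KU63794, TORIN1 and mock. GPT2 lies between 13.6 and 56.6 CPM with inhibitors and at or below 2.19 CPM in mock, while GPT1 stays between 15.9 and 26 CPM in all groups.

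GPT1, the housekeeping counterpart of GPT2, lies at chr5:22261134-22263936 on the plus strand with 5 exons. It was called lower with KU63794, close to the threshold, and was called with neither of the other compounds. Its libraries had 26, 18.1 and 19 CPM with AZD8055, 16.5, 15.9 and 20.3 CPM with KU63794, 23.5, 20.4 and 18.2 CPM with TORIN1, and 25.5, 21.1 and 25.3 CPM in mock. Only the KU63794 libraries lay wholly below mock, with a log2 fold change of -0.45 (SE 0.15) and an adjusted p of 0.0462 by edgeR's quasi-likelihood test with Benjamini-Hochberg adjustment over all tested genes. This call was lost without any 1 of KU63794 replicates 1 and 2, TORIN1 replicate 2 and mock replicates 1 and 3, with edgeR adjusted p-values of 0.132, 0.144, 0.0645, 0.146 and 0.128. It was also lost with RLE scaling (edgeR adjusted p = 0.0538), without the low-count filter (edgeR adjusted p = 0.0512) and by DESeq2 (adjusted p = 0.0638). Limma voom, the edgeR fit of only the 2 groups compared and a replicate block kept it. The authors' deposited tables do not list GPT1. With AZD8055 the change was -0.19 (SE 0.15, edgeR adjusted p = 0.401) and with TORIN1 -0.21 (SE 0.15, edgeR adjusted p = 0.373), neither beyond the spread between libraries.

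As a share of glucose 6-phosphate translocator mRNA, a description with no test since GPT2 levels chose the family, GPT2 was the larger part in 8 of 9 inhibitor libraries and the smaller part in all mock libraries. GPT2 made up 68.5%, 71.5% and 68.8% of the summed GPT1 and GPT2 counts with AZD8055, 64.3%, 46.0% and 62.3% with KU63794, 54.9%, 61.7% and 64.4% with TORIN1, and 3.13%, 9.39% and 0% in mock. In mock replicate 3, 0 of 194 counts allows a share of up to 1.55% (taken as 3 counts), or 1.88% by the exact binomial 95% interval. Group means were 69.6% ± 1.67 with AZD8055, 57.5% ± 10.0 with KU63794, 60.3% ± 4.91 with TORIN1 and 4.17% ± 4.78 in mock (SD, n = 3 each). Without mock replicate 2 the mock mean was 1.56%, without mock replicate 3 it was 6.26%, and without KU63794 replicate 2 the KU63794 mean was 63.3%. The summed level of both genes was 69.0 ± 11.9 CPM with AZD8055, 43.2 ± 12.5 with KU63794, 52.1 ± 1.14 with TORIN1 and 25.0 ± 1.52 in mock (SD, n = 3 each).

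TPT, the exporter of photosynthetic triose phosphate, lies at chr5:18697235-18700900 on the plus strand with 12 exons. It was by far the most abundant member, rose with AZD8055 and lay above mock in every inhibitor library. It had 3931, 2964 and 3351 CPM with AZD8055, 3052, 3130 and 2865 CPM with KU63794, 2877, 3054 and 3423 CPM with TORIN1, and 2402, 2374 and 2626 CPM in mock. No inhibitor library fell within the mock range. The log2 fold change was 0.47 with AZD8055 (SE 0.13, edgeR adjusted p = 0.0111). By the same fit, which did not call them, it was 0.29 with KU63794 (SE 0.13, edgeR adjusted p = 0.109) and 0.34 with TORIN1 (SE 0.13, edgeR adjusted p = 0.0728), and both passed the threshold by DESeq2 (adjusted p = 0.0188 and 0.0122) and in edgeR fits of only the 2 groups compared (adjusted p = 0.0291 and 0.0437). The TORIN1 change of TPT, still 0.34, also passed without AZD8055 replicate 1 (edgeR adjusted p = 0.0434). The authors' deposited tables list TPT for all 3 inhibitors, with log2 values of mock over inhibitor of -0.47, -0.30 and -0.32. A gene on the opposite strand that overlaps TPT, AT5G46105, had at most 5 counts in any library.

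Of the phosphoenolpyruvate translocators, PPT2 rose with AZD8055 and PPT1 fell with KU63794. PPT2, at chr3:216805-219136 on the minus strand, had 44.2, 42.2 and 47.6 CPM with AZD8055, 35.4, 30.7 and 36.4 CPM with KU63794, 32.6, 40.6 and 47.9 CPM with TORIN1, and 33.1, 32.9 and 29.7 CPM in mock. Its AZD8055 libraries all lay above mock, and it rose there with a log2 fold change of 0.48 (SE 0.13, edgeR adjusted p = 0.00983). With TORIN1, where the groups overlapped, the change was 0.34 (SE 0.13, edgeR adjusted p = 0.0768), or 0.47 (edgeR adjusted p = 0.0136) without TORIN1 replicate 1, and with KU63794 0.10 (SE 0.13, edgeR adjusted p = 0.640).

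PPT1, at chr5:12588741-12591748 on the plus strand, is the gene mutated in the reticulate-leaf mutant cue1. It had 169, 156 and 142 CPM with AZD8055, 160, 138 and 149 CPM with KU63794, 170, 182 and 179 CPM with TORIN1, and 173, 191 and 183 CPM in mock. It fell with KU63794, by 0.29 on the log2 scale (SE 0.09, edgeR adjusted p = 0.0278), which no longer passed when KU63794 replicate 2 or 3, or mock replicate 2 or 3, was left out (edgeR adjusted p = 0.104, 0.0689, 0.114 and 0.0758). The change was -0.23 with AZD8055 (SE 0.09, edgeR adjusted p = 0.0724), where the groups did not overlap either, or -0.29 (edgeR adjusted p = 0.0300) without AZD8055 replicate 1, and -0.04 with TORIN1 (SE 0.09, edgeR adjusted p = 0.797). The authors' deposited tables list PPT1 for AZD8055 and KU63794, with log2 values of mock over inhibitor of 0.21 and 0.27. Of the 1727 stretches of 50 bases in the PPT1 mRNA, 37 (2.14%) occurred elsewhere in the nuclear genome, and those of the other 5 members did not.

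XPT, at chr5:5809334-5810962, the intronless member of the family, was barely detected. It had 14, 14 and 22 counts with AZD8055, 22, 12 and 17 with KU63794, 9, 10 and 13 with TORIN1, and 14, 12 and 6 in mock. Its log2 fold changes were 0.62 (SE 0.37, edgeR adjusted p = 0.232), 0.48 (SE 0.37, edgeR adjusted p = 0.387) and 0.04 (SE 0.39, edgeR adjusted p = 0.973), so no difference was detectable at this depth. The gene AT5G17640 overlaps it on the opposite strand and had more counts, 73 to 113 with AZD8055, 101 to 189 with KU63794, 60 to 84 with TORIN1 and 24 to 85 in mock. The sources used here do not say whether the counting used strand, so the XPT values are uncertain, and the part of the neighbour in them was not tested.

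Of the 5 members other than GPT2, 2 were called higher with AZD8055 (TPT and PPT2), against 14.4% of all tested genes called higher in that comparison and 30.5% called in either direction. With KU63794, 2 were called lower (GPT1 and PPT1), against 14.3% of all genes called lower and 25.4% in either direction. With TORIN1 none of the 5 was called in the main edgeR fit, against 20.2% of all genes (9.87% higher and 10.3% lower). There the unadjusted edgeR p of TPT and PPT2 was below 0.05. None of the 5 was called with more than 1 inhibitor in the main edgeR fit. In edgeR fits of only the 2 groups compared, TPT passed with KU63794 and TORIN1 too (adjusted p = 0.0291 and 0.0437). By DESeq2 TPT also passed with both (adjusted p = 0.0188 and 0.0122). PPT1 passed by DESeq2 with AZD8055 (adjusted p = 0.0476) as well as with KU63794. The median log2 fold change of all tested genes was 0.00, 0.01 and -0.01 with AZD8055, KU63794 and TORIN1.

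**Figure D2:**
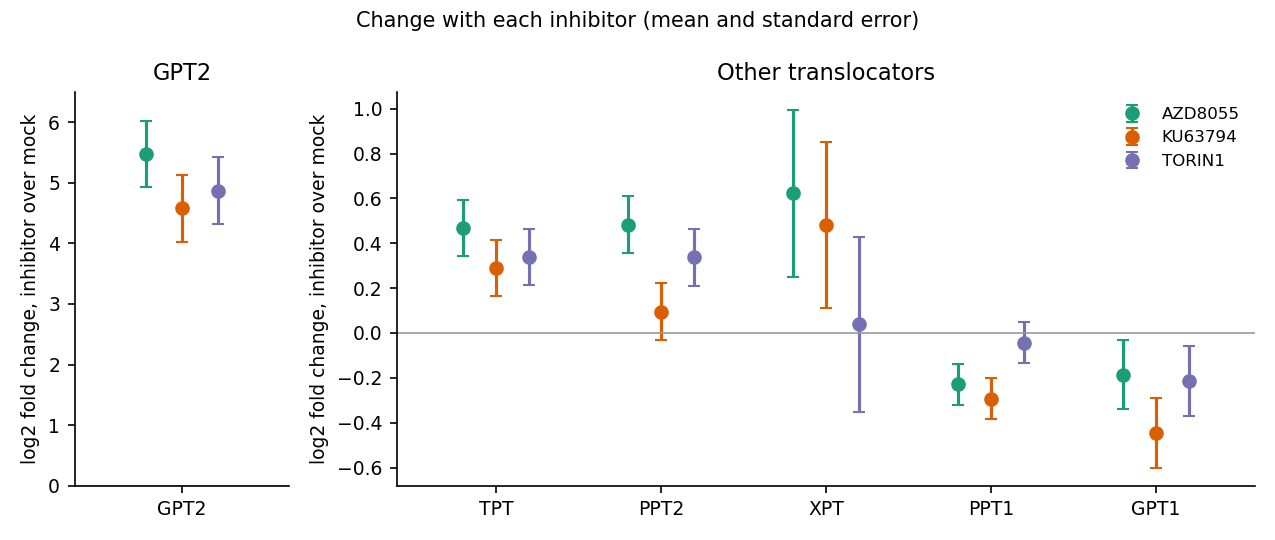
Log2 fold change of each translocator over mock with AZD8055, KU63794 and TORIN1, with GPT2 on its own axis at left and bars of 1 SE from the edgeR fit. GPT2 lies between 4.58 and 5.48, and the other 5 genes between -0.45 and 0.62.

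Per length, the order of the family changed at 1 place, that of GPT2. In CPM per kilobase of coding sequence (mean ± SD, n = 3 each), TPT stood at 2737 ± 390 with AZD8055, 2417 ± 109 with KU63794, 2499 ± 223 with TORIN1 and 1977 ± 111 in mock. It made up 92.4%, 92.8%, 91.8% and 90.9% of the summed level of the 6 genes in these groups. PPT1 came next, at 127 ± 11.2, 121 ± 9.0, 144 ± 4.9 and 149 ± 7.4 CPM per kilobase. Its share of the family was 4.32%, 4.66% and 5.32% with AZD8055, KU63794 and TORIN1 and 6.84% in mock.

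GPT2 stood at 38.9 ± 6.2 CPM per kilobase with AZD8055, 20.8 ± 8.6 with KU63794, 25.5 ± 2.0 with TORIN1 and 0.814 ± 0.896 in mock. PPT2 was at 38.8 ± 2.4, 29.7 ± 2.6, 35.0 ± 6.7 and 27.7 ± 1.7, and GPT1 at 18 ± 3.7, 15.1 ± 2.0, 17.7 ± 2.3 and 20.5 ± 2.1, in the same groups. GPT2 overlapped PPT2 with AZD8055 and both PPT2 and GPT1 with KU63794, and lay between PPT2 and GPT1 without overlap with TORIN1. In mock it overlapped only XPT at the bottom of the order, which had 1.19, 1.08, 0.797 and 0.766 CPM per kilobase with AZD8055, KU63794, TORIN1 and mock. Even with AZD8055, GPT2 was 1.32% of the family's summed level, against 0.0386% in mock.

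**Figure D3:**
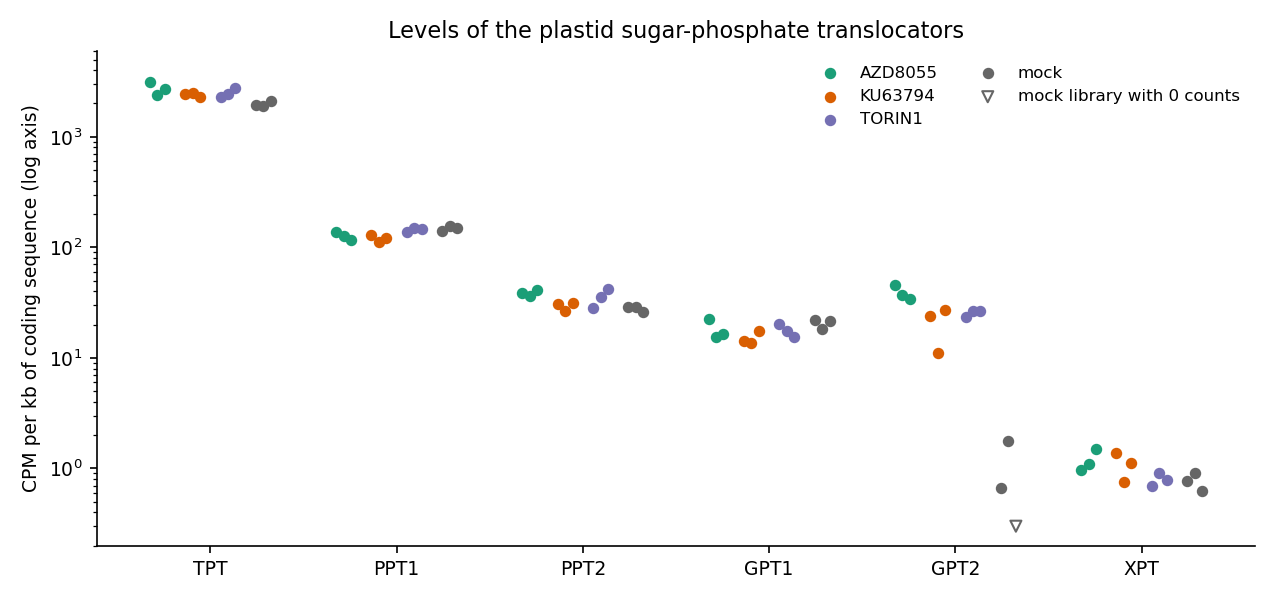
Levels of the 6 translocators in CPM per kilobase of coding sequence, on a log axis, one point per library in the order AZD8055, KU63794, TORIN1 and mock for each gene. The open triangle marks the mock library with 0 GPT2 counts, placed below the lowest measured value, and GPT2 is the one gene whose mock points lie far below its inhibitor points.

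The inhibitors were compared with each other in 3 pairs, at doses that differ, so compound and dose cannot be told apart. Of all tested genes, 1.8% were called between AZD8055 and TORIN1 (0.496% higher and 1.3% lower with AZD8055), 2.82% between TORIN1 and KU63794 (2.21% higher and 0.602% lower with TORIN1) and 0.00558%, or 1 gene, between AZD8055 and KU63794. No translocator was among them by edgeR or limma voom, nor by DESeq2, which gave no adjusted p for XPT in these pairs. At an unadjusted p below 0.05 there were 3 differences among the 18, those of GPT2 and PPT2 between AZD8055 and KU63794 and that of PPT1 between TORIN1 and KU63794.

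GPT2 was highest with AZD8055, whose libraries did not overlap those of the other compounds. The AZD8055 level minus the TORIN1 level was 0.61 on the log2 scale (95% interval -0.22 to 1.44, edgeR adjusted p = 0.469). The AZD8055 level minus the KU63794 level was 0.91 (0.07 to 1.74, edgeR adjusted p = 0.583), and 0.60 without KU63794 replicate 2, the lowest inhibitor library. TORIN1 minus KU63794 was 0.29 (-0.55 to 1.14, edgeR adjusted p = 0.719), with overlapping libraries. These intervals reach differences of more than 1 on the log2 scale, so differences of that size lie within the error of these libraries.

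PPT2 was higher with AZD8055 than with KU63794 in all libraries, by 0.39 (0.12 to 0.66, edgeR adjusted p = 0.535). PPT1 was higher with TORIN1 than with KU63794 in all libraries, by 0.25 (0.06 to 0.45, edgeR adjusted p = 0.141). The AZD8055 level of PPT1 minus its TORIN1 level was -0.19 (-0.38 to 0.01, edgeR adjusted p = 0.337), again without overlap. For TPT the 3 differences lay between 0.05 and 0.18 with intervals from -0.22 to 0.45, and for GPT1 between 0.03 and 0.26 with intervals from -0.30 to 0.59.

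**Figure D4:**
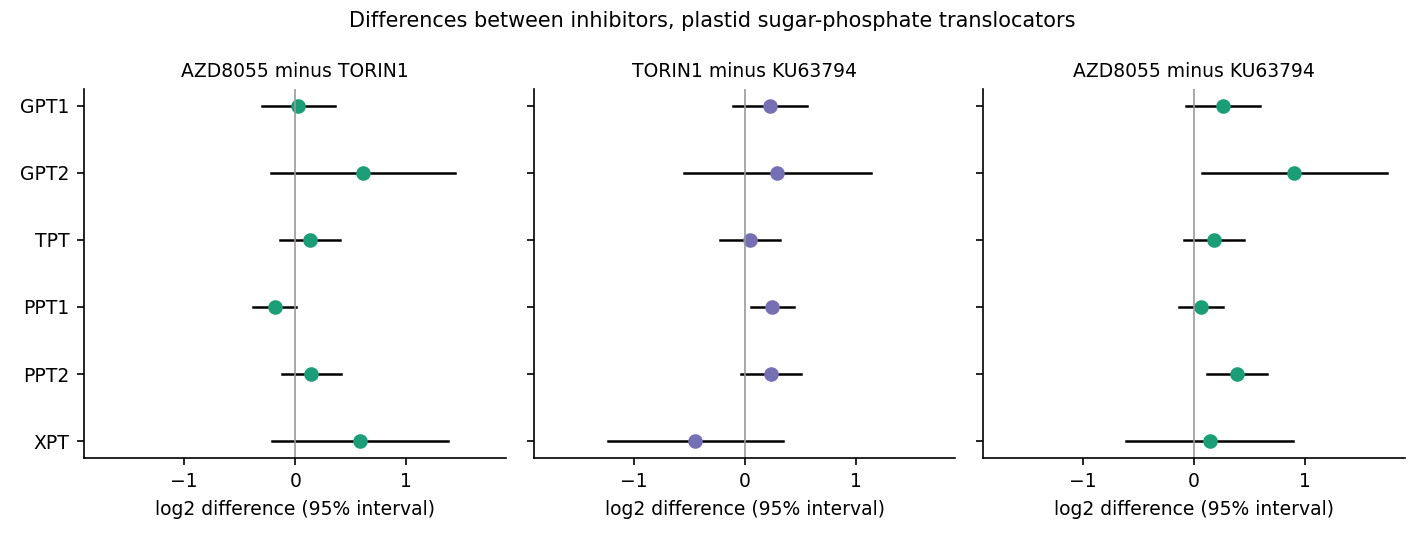
Log2 differences between inhibitors for each translocator, AZD8055 minus TORIN1 (left), TORIN1 minus KU63794 (middle) and AZD8055 minus KU63794 (right), as points with 95% intervals from the edgeR fit. The widest intervals are those of GPT2 and XPT, and the intervals that leave out 0 are those of GPT2 and PPT2 at right and PPT1 in the middle.

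Genes of pathways linked to the carried metabolites, and other carriers of the plastid envelope, were followed in 5 lists of 70 genes. All of them passed the filter. The lists were chosen with earlier results of these data known, so their counts beside those of all tested genes are a description. Over all tested genes, 6.2% were called higher and 7.33% lower with all 3 inhibitors. The list nearest to GPT2 is starch synthesis from plastid glucose 6-phosphate. Of its 14 genes, 11 were called higher with AZD8055, 8 with KU63794 and 11 with TORIN1, against 14.4%, 11.1% and 9.87% of all tested genes. The count with KU63794 was 5 without KU63794 replicate 3 or without mock replicate 2. None was called lower by edgeR, DESeq2 or limma voom, and at an unadjusted edgeR p below 0.05 there were 0, 2 and 0 lower. Over all tested genes edgeR called 16.1%, 14.3% and 10.3% lower. The list's median log2 fold changes were 0.49, 0.32 and 0.55, beside 0.00, 0.01 and -0.01 over all genes. The 8 genes called with all 3 inhibitors were APL3, GBSS1, APL4, SBE2.2, SBE2.1, SS2, APS1 and SS3.

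APL3 encodes a large subunit of ADP-glucose pyrophosphorylase, the enzyme that makes the glucosyl donor of starch. It averaged 151 ± 30.0 CPM with AZD8055, 107 ± 36.6 with KU63794, 132 ± 6.09 with TORIN1 and 23.5 ± 2.96 in mock (SD, n = 3 each). The fitted log2 fold changes over mock were 2.68 (SE 0.25), 2.18 (SE 0.24) and 2.48 (SE 0.24), with edgeR adjusted p-values of 1.4e-05, 6.89e-05 and 0.000116. GBSS1, the granule-bound synthase that makes amylose, averaged 540 ± 45.0, 349 ± 105, 405 ± 86.9 and 99.8 ± 12 CPM in these groups. It rose by 2.43 (SE 0.21), 1.80 (SE 0.21) and 2.02 (SE 0.21), with edgeR adjusted p-values of 4.69e-06, 4.16e-05 and 8.08e-05. APL4, another large subunit, rose by 0.86, 0.81 and 0.90 (SE 0.22 each, edgeR adjusted p = 0.00892, 0.0139 and 0.0103).

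The plastid pentose phosphate pathway, another route for imported glucose 6-phosphate, had 1 of 11 genes called higher and 2 called lower with AZD8055, 2 called lower with KU63794 and none with TORIN1 by edgeR, DESeq2 or limma voom, where 2 were higher and 1 lower at an unadjusted edgeR p below 0.05. Over all tested genes 14.4% were called higher and 16.1% lower with AZD8055 and 14.3% lower with KU63794, so these counts are near the background. Its median log2 fold changes were -0.19, -0.24 and -0.11. The 2 lower genes were the same with both compounds, G6PD3, a glucose 6-phosphate dehydrogenase, and TRA2, a transaldolase. G6PD3 changed by -0.52 (SE 0.17, edgeR adjusted p = 0.0353) with AZD8055 and -0.62 (SE 0.17, edgeR adjusted p = 0.0168) with KU63794, and TRA2 by -0.47 (SE 0.12, edgeR adjusted p = 0.00847) and -0.43 (SE 0.12, edgeR adjusted p = 0.0164). They were named after their values were seen. These counts of 0 to 2 are not firm: the count of 1 higher with AZD8055 became 0 when mock replicate 2 or 3, or AZD8055 replicate 2, was left out. The count of 2 called lower with AZD8055 became 1 without AZD8055 replicate 2 or any 1 mock library. The count of 2 with KU63794 became 0 without KU63794 replicate 2 or mock replicate 2, and 1 without KU63794 replicate 1 or mock replicate 1. The edgeR counts of genes higher reached 1 with KU63794 without AZD8055 replicate 1 or 3 or KU63794 replicate 1, and 2 with AZD8055 without AZD8055 replicate 1. With TORIN1 they reached 1 without AZD8055 replicate 1 or 3 and 2 without KU63794 replicate 2.

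Of 12 genes of cytosolic sucrose synthesis, which uses the triose phosphate that TPT exports, the genes called higher were 5 with AZD8055, 3 with KU63794 and 5 with TORIN1, beside 14.4%, 11.1% and 9.87% of all tested genes. None of the 12 was called lower by edgeR, against 16.1%, 14.3% and 10.3% of all tested genes. By DESeq2 and by limma voom 1 was called lower with KU63794, and at an unadjusted edgeR p below 0.05 the counts were 0, 1 and 0. The same count of 1 came without AZD8055 replicate 1, KU63794 replicate 3, TORIN1 replicate 1 or 3, or mock replicate 1. The medians were 0.28, 0.26 and 0.34. SPSA1, a sucrose phosphate synthase, averaged 336 ± 34.2 CPM with AZD8055, 268 ± 18.1 with KU63794, 306 ± 38.1 with TORIN1 and 145 ± 11.2 in mock (SD, n = 3 each). It rose by 1.21, 0.89 and 1.08 on the log2 scale (SE 0.11 each, edgeR adjusted p = 4.28e-06, 5.73e-05 and 4.99e-05). The sucrose phosphatase genes AT3G52340, with 0.61, 0.68 and 0.67, and AT2G35840, with 0.75, 0.51 and 0.73, were also called with all 3 inhibitors.

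The list on plastid use of phosphoenolpyruvate held 15 genes, which make or use it or act in later steps of the shikimate pathway. Of these, 1 was called higher with each inhibitor, and 5, 5 and 2 were called lower with AZD8055, KU63794 and TORIN1. Over all tested genes 14.4%, 11.1% and 9.87% were called higher and 16.1%, 14.3% and 10.3% lower. The AZD8055 count of 5 became 3 when mock replicate 2 or 3, or AZD8055 replicate 2, was left out. The TORIN1 count of 2 became 1 without TORIN1 replicate 2 or 3 and 0 without mock replicate 2. The count of 1 higher became 2 with AZD8055 without mock replicate 2, and with TORIN1 without AZD8055 replicate 1. The gene called higher was SK1, a shikimate kinase, with 0.41, 0.47 and 0.46 (SE 0.10 each, edgeR adjusted p = 0.00827, 0.00399 and 0.00693). The subunits of plastid pyruvate kinase PKPbeta1, with -0.58, -0.45 and -0.38, and PKPalpha, with -0.49, -0.38 and -0.35, were called lower with all 3.

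Among 18 other carriers of the plastid envelope, AZD8055 gave 4 called higher and 4 lower, KU63794 gave 1 higher and 3 lower, and TORIN1 gave 4 higher and 1 lower. Over all tested genes 14.4%, 11.1% and 9.87% were called higher and 16.1%, 14.3% and 10.3% lower, and several of the list's counts lie near these shares. The medians were 0.13, 0.07 and 0.16. The counts of 4 higher became 2 with AZD8055 without mock replicate 1 or 2, and 2 with TORIN1 without TORIN1 replicate 3 or mock replicate 2. The KU63794 count of 1 higher was 3 without KU63794 replicate 2 or by DESeq2, and 2 by limma voom or without AZD8055 replicate 1 or 3, KU63794 replicate 1 or TORIN1 replicate 1 or 3. Those called with all 3 inhibitors were AT4G22840, a gene of the sodium bile acid symporter family, and NTT2, an importer of ATP into plastids. AT4G22840 averaged 7.81 ± 0.25 CPM with AZD8055, 6.64 ± 0.75 with KU63794, 6.75 ± 1.15 with TORIN1 and 3.63 ± 0.59 in mock, and rose by 1.08, 0.85 and 0.87 (SE 0.18 each, edgeR adjusted p = 0.000429, 0.00317 and 0.00421). NTT2 had 85.4, 76.8 and 86.4 CPM with AZD8055, 88.2, 98.7 and 92.4 with KU63794, 94.8, 95.8 and 96.0 with TORIN1, and 137, 143 and 131 in mock. It changed by -0.73, -0.56 and -0.52 (SE 0.08 each, edgeR adjusted p = 1.48e-05, 0.000153 and 0.00061). Its close relative NTT1 rose with AZD8055, by 0.41 (SE 0.10, edgeR adjusted p = 0.00733), and with TORIN1, by 0.52 (SE 0.10, edgeR adjusted p = 0.00252), and had 0.24 with KU63794 (SE 0.10, edgeR adjusted p = 0.098). NTT1 was named after its values were seen.

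**Figure D5:**
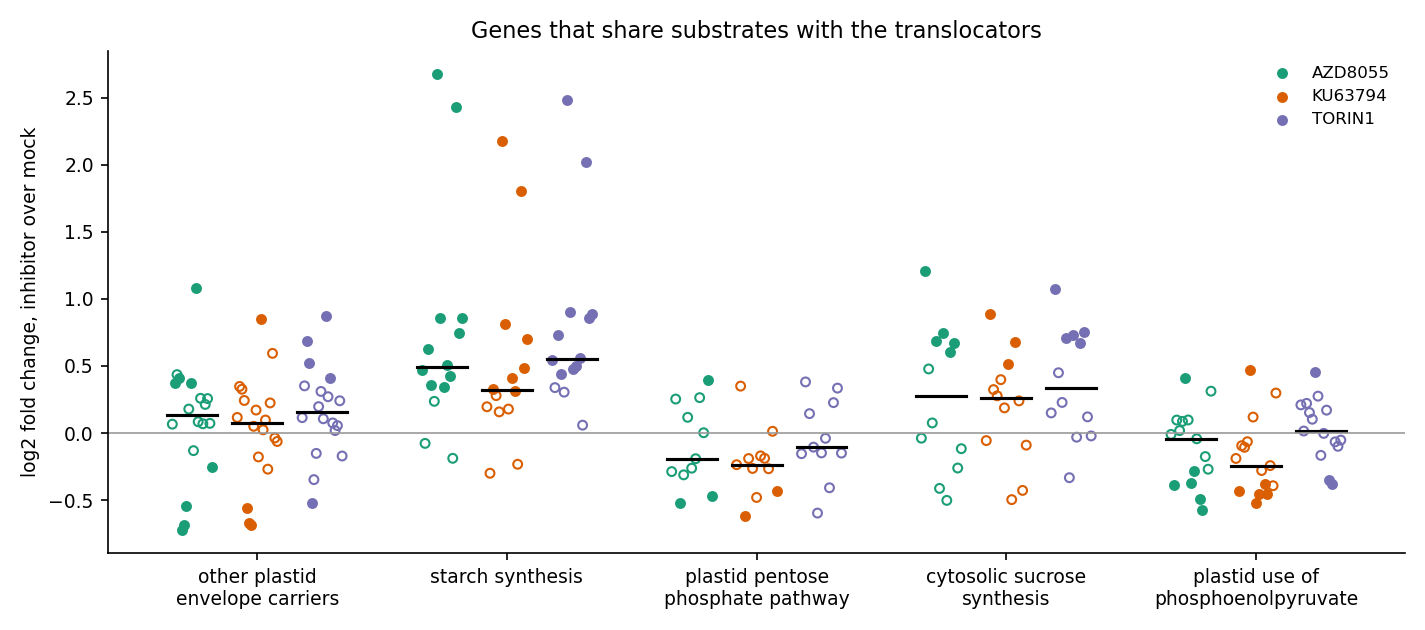
Log2 fold change over mock, by inhibitor, of each gene in the 5 lists of linked pathways and other plastid envelope carriers. Filled points are genes called by edgeR at an adjusted p below 0.05, open points are the others, and a bar marks the median. The starch list holds the highest points, APL3 and GBSS1, and neither it nor the cytosolic sucrose list has a filled point below 0.

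Over the 12 libraries and 16887 genes, likeness to GPT2 was measured by Pearson's r of log2 CPM, as a description, since the libraries share their treatments. The 8 genes most like GPT2 were TT8, a bHLH regulator of flavonoid synthesis (r = 0.98), NF-YA7, a subunit of a CCAAT-binding factor (0.97), AT1G80130 (0.97), AT5G18900 (0.96), AT1G76620 (0.96), AT3G05910 (0.96), AT1G45010 (0.96) and AT2G25625 (0.96). Of these 8, 1 was among the 8 by Spearman's rho, 4 with a prior count of 0.5 in place of 2, 4 without KU63794 replicate 2 or any 1 mock library, and 5 without AZD8055 replicate 3 or TORIN1 replicate 1. Their changes were smaller, from 0.44 (AT3G05910) to 3.99 (AT1G80130) with AZD8055. TT8 averaged 15.4 ± 4.25 CPM with AZD8055, 10.09 ± 4.35 with KU63794, 12.8 ± 0.42 with TORIN1 and 1.97 ± 0.83 in mock (SD, n = 3 each). GBSS1 stood at place 13 (r = 0.95) and APL3 at place 45 (0.93).

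Within the family r with GPT2 was 0.73 for TPT, 0.68 for PPT2, 0.58 for XPT, -0.46 for PPT1 and -0.47 for GPT1. TPT, the most like of them, stood at place 1604.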

How the data were processed

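The deposited counts per gene of 12 libraries were used as they stand, and the log2 fold changes and adjusted p-values of the authors' deposited tables were copied for comparison. Those tables list only genes past a threshold. TAIR10, StringTie 1.3.3 and DESeq2 1.18.1 stand in the submitters' processing notes with no role. The sources used here give no aligner, strand or handling of shared reads.

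All 12 libraries entered 1 fit of the counts, made in R 4.3.3 with edgeR 4.0.16 with 4 groups, TMM factors, filterByExpr at its defaults and robust two-sided quasi-likelihood tests, with Benjamini-Hochberg adjustment over 17933 genes in each comparison and a threshold of 0.05. The SE of a log2 fold change is its size over the root of the F statistic. Intervals of shares are exact binomial. Likeness used log2 CPM with a prior count of 2. DESeq2 1.42.0 and limma 3.58.1 were alternatives, with other scaling, no filter, 2 groups only, a replicate block and 12 leave-one-out fits. The fits were also run on simulated data with 200 genes changed in the AZD8055 group only. The outcome is not given here, so that run does not vouch for the calls above. Coding sequences, promoters and names came from RefSeq on TAIR10.1, and alignments from Biopython 1.88. Figures were drawn with matplotlib 3.10.9.

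Named genes were the 6 translocators, up to 3 genes per list called in the same direction with all 3 inhibitors with a mean of at least 1 CPM and the largest smallest change, every such gene among the carriers, and the 8 genes most like GPT2. Members and lists were chosen with earlier results of these data known. Replicate numbers were not taken to pair libraries: of 18 correlations between same-numbered libraries of different groups, 3 were above 0.1 and the median was 0.03.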

Additional observations from a re-analysis of the deposited data

Results flagged for a closer look

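No translocator differed between inhibitors in the edgeR test. Of the 70 genes of the lists of linked pathways and other carriers, each tested in 3 pairs of inhibitors, 7 did. All 7 genes were higher with TORIN1 than with KU63794, at doses that also differ. Their calls were not followed through the alternative settings. DiT1, the plastid carrier that exchanges 2-oxoglutarate for malate, differed by 0.53 on the log2 scale (162 CPM with TORIN1, 112 CPM with KU63794, edgeR adjusted p = 0.0235). PGM1, the plastid phosphoglucomutase of starch synthesis, differed by 0.64 (701 CPM with TORIN1, 450 CPM with KU63794, edgeR adjusted p = 0.0302). G6PD3, the plastid glucose 6-phosphate dehydrogenase named above, differed by 0.77 (26.5 CPM with TORIN1, 15.6 CPM with KU63794, edgeR adjusted p = 0.0370). UGP1, a UDP-glucose pyrophosphorylase of sucrose synthesis, differed by 0.52 (599 CPM with TORIN1, 418 CPM with KU63794, edgeR adjusted p = 0.0370).

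The other 3 belong to the shikimate pathway, which starts from phosphoenolpyruvate. The EPSP synthase genes AT1G48860 and AT2G45300 differed by 0.35 (79.4 CPM with TORIN1, 62.2 CPM with KU63794, edgeR adjusted p = 0.0471) and 0.45 (78.6 CPM with TORIN1, 57.4 CPM with KU63794, edgeR adjusted p = 0.0307). The chorismate synthase gene AT1G48850 differed by 0.45 (227 CPM with TORIN1, 166 CPM with KU63794, edgeR adjusted p = 0.0441). In each of the 7 the TORIN1 libraries lay wholly above the KU63794 libraries. In that comparison 2.21% of all tested genes were called higher with TORIN1.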

How the results depend on the processing

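Of 1343 values under alternative settings, 1252 were scored as unchanged. Tested values had to keep their side of the threshold, counts to stay within 1.5 times, and levels per kilobase within 1 SD. GPT2 fold changes over mock and GPT2 shares had no test, so they had no side of a threshold. They were all scored as unchanged, although the AZD8055 fold of GPT2 was 44.7 in the main fit and 89.5 without mock replicate 2. The numbers of unchanged values given here thus do not show how steady these GPT2 values are. Of the values that changed, 48 lost a call or fell below the range of counts, and 43 gained one or rose above it. No called value changed direction. The log2 fold change of PPT1 with AZD8055 passed by DESeq2 (-0.22, adjusted p = 0.0476). That of GPT1 with KU63794 was lost with RLE scaling (-0.43, edgeR adjusted p = 0.0538), without a filter (-0.45, 0.0512) and by DESeq2 (-0.43, 0.0638). TPT passed by DESeq2 and in edgeR fits of 2 groups with KU63794 (0.31 and 0.29, adjusted p = 0.0188 and 0.0291) and TORIN1 (0.33 and 0.34, 0.0122 and 0.0437). Of the 8 genes most like GPT2, 1 was among the 8 by Spearman's rho and 4 with a prior count of 0.5. The cause of these changes was not tested. Leaving out single libraries gave log2 ranges of -0.29 to -0.17 for PPT1 with AZD8055, -0.56 to -0.38 for GPT1 and -0.35 to -0.24 for PPT1 with KU63794, and 0.27 to 0.39 for TPT and 0.19 to 0.47 for PPT2 with TORIN1. Genes of the 5 lists called lower numbered 7 to 12 with AZD8055 and 1 to 3 with TORIN1, and 4 to 7 of the 8 most like genes stayed among the 8. With replicate number as a block (replicate block), 68 of 72 values were scored as unchanged. Of the others, 4 gained a call or rose above the range of counts, and 0 lost a call or fell below it. DESeq2 gave no adjusted p for XPT between inhibitors. The mock level of GPT2, 0 to 23 counts a library, and the counts of XPT limit what this depth can show.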
